A study of Rattus norvegicus with 24 samples.

Results

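The genes described here are 32 rat genes for cardiac ion channels and calcium handling proteins: potassium channels, pacemaker channels, calcium channel subunits, the calcium store of the sarcoplasmic reticulum and its junction, and the exchanger, pump and gap junction of the cell surface. They were listed by symbol. A probe was taken when its RefSeq transcript accession belonged to a listed symbol, which gave 44 probes for 31 of the 32 genes. No probe was named for Cacna1d, an L-type calcium channel subunit, and it is not analysed here. All 31 entered the tests, among 12894 genes in all, and 11 of them had 2 or more probes.

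The study asked how acupuncture given ahead of myocardial ischaemia-reperfusion injury (IRI) acts on the heart. Rat myocardial RNA was hybridised to 24 single-colour arrays, 4 in each of 6 groups, with 2 labelled male and 2 labelled female in each group. Sham rats had no coronary ligation and no acupuncture is stated for them, IRI rats had the left anterior descending coronary artery ligated, and 4 further groups had the same ligation after 7 days of acupuncture at Jiaji, Neiguan, Yanglingquan or Quchi, each a single acupoint. For strain, age, the time of reperfusion, the part of the heart sampled and any sham acupuncture, the labels give nothing. The labels do not say whether animals were pooled, so each p-value rests on the spread among these arrays alone.

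In a heart muscle cell, outward and inward rectifier potassium channels set repolarisation and the resting potential, and L-type calcium channels let in the calcium that opens the ryanodine receptor, the release channel of the sarcoplasmic reticulum. The calcium pump SERCA2, held back by phospholamban, refills that store, and the sodium-calcium exchanger removes the rest from the cell. Pacemaker channels and T-type calcium channels carry currents best known from the sinus node and conduction system, and T-type channels are also known from foetal and overloaded ventricle.

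A level is log2 of a probe's processed intensity minus the 75th percentile of its array, so 0 marks that percentile. Levels of different probes are not compared. A difference is the first group's mean log2 level minus the second's from 1 limma fit with group and sex, given with its standard error (SE). A gene is referred to as called when its p-value, adjusted by Benjamini-Hochberg over all 12894 genes, was under 0.05.

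Of each array's probes, 71.1% to 76.3% were well above background in Yanglingquan and 75.6% to 88.7% in the other groups. Across genes, the correlation between arrays was 0.976 to 0.992 within groups and 0.964 to 0.991 between them. By the scan date in the file headers, each group was scanned apart from the others, and Quchi replicate 1 apart from the other Quchi arrays. Scan and group therefore cannot be told apart. The tissue label was checked against 12 cardiomyocyte markers: 11 had a named probe and all 11 were well above background on every array, while Ttn had no named probe. This check does not show which part of the heart was sampled. Of 8 atrial markers, Bmp10 was well above background on 8 of 24 arrays, Clic6 on 22 and the others on all 24. The share of atrial tissue was not tested. In bulk tissue, fewer cells of a type and less RNA per cell cannot be told apart. Of the 31 channel and calcium genes tested, 30 were well above background on all 24 arrays and Hcn4 was on 23, its spot on Neiguan replicate 1 having been marked as an outlier and left out.

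RefSeq promoter windows of the GRCr8 assembly matched 22 of the 32 genes, and 8 of these windows lay wholly outside the annotated gene. 3 of those 8 belong to genes that differed in a comparison below, and they are shown for that reason: the calcium pump Atp2a2 and the inward rectifiers Kcnj2 and Kcnj8. Each is the 250 bases before the gene start, 5′ to 3′ on the gene's own strand. They lie at chr12:39733269-39733518 on the plus strand (Atp2a2), chr10:96559975-96560224 on the plus strand (Kcnj2) and chr4:177246549-177246798 on the minus strand (Kcnj8). Capitals mark every match, on either strand, to the GC box GGGCGG, the CCAAT box CCAAT, the TATA box TATAAA, the E-box CACGTG or the M-CAT element CATTCC.
Atp2a2: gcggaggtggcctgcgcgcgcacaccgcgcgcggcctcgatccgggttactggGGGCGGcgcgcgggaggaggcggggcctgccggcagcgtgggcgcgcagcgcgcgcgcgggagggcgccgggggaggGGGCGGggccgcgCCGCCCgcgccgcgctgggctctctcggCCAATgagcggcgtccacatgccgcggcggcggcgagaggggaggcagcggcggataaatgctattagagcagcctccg
Kcnj2: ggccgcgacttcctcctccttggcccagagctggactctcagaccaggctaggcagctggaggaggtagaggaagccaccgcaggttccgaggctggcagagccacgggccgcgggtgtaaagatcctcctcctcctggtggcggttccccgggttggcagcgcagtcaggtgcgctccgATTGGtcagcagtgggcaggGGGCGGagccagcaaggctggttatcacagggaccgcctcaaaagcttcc
Kcnj8: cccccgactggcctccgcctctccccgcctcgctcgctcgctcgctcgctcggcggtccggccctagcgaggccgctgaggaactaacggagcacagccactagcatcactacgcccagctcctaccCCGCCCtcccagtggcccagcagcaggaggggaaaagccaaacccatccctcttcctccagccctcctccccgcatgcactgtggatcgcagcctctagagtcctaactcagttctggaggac
Atp2a2 held GC boxes starting at -197, -120 and -107 and a CCAAT box at -79, counted back from the gene start. Kcnj2 held an inverted CCAAT box at -70 and a GC box at -50, and Kcnj8 an inverted GC box at -123. Over all 22 windows, 12 held a GC box, 6 a CCAAT box, 2 an M-CAT element, 0 a TATA box and 0 the E-box. Of 33469 RefSeq windows of this length, 30.5% held a GC box, 34.0% a CCAAT box, 12.1% an M-CAT element, 12.9% a TATA box and 5.6% the E-box. None of these motifs overlaps another in the printed windows. A match describes the letters of the window and shows no binding.

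Across the group comparisons, few of the 31 genes moved. In IRI against sham, Trdn fell and none rose. There the background, the share of all genes called, was 4.73% higher and 1.03% lower. Against IRI, Hcn4 rose in Jiaji (background 8.38% higher, 1.8% lower) and in Neiguan (4.41% higher, 1.22% lower), and Atp2a2, Pln and Kcnj5 rose in Yanglingquan (4.09% higher, 8.06% lower). In Quchi against IRI 0 of 31 were called by limma, with 4 at an unadjusted p under 0.05, beside a background of 2.39% higher and 1.05% lower.

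Set against sham, Hcn4, Cacna1g and Atp2a2 rose and Trdn fell in Jiaji, where the background was 17.5% higher and 6.53% lower. The same genes were called, in the same directions, in Neiguan, where the background was 12.5% higher and 7.41% lower. In Yanglingquan Atp2a2 and Pln rose, beside a background of 5.84% higher and 7.19% lower. In Quchi Cacna1g and Kcnj2 rose and Kcnip2 and Kcna4 fell, beside 11.8% higher and 9.26% lower. The called share of the 31 exceeded the background only in IRI against sham (1 lower), Yanglingquan against IRI (3 higher) and, barely, Yanglingquan against sham (2 higher). These small counts are not read as a result for the 31 genes together. Under quantile normalization, Kcnj5 alone was called higher in Yanglingquan against IRI, and 0 were called higher against sham. With the mean of each gene's passing probes, 0 were called in IRI against sham. The comparisons share the sham or the IRI arrays.

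The split of all genes depends on the scaling. In Jiaji against sham 2253 genes were called higher and 842 lower, against 1547 and 2187 with quantile normalization and 1643 and 5224 with each array's median as the scale. In Neiguan against sham the main split was 1612 and 955, against 1443 and 2022 with quantile normalization and 1379 and 2946 with the median. In Yanglingquan against IRI it was 527 and 1039, against 359 and 489 with quantile normalization and 911 and 777 with the median. For IRI against sham the 610 higher and 133 lower became 549 and 266 with quantile normalization, for Jiaji against IRI 1080 and 232 became 742 and 635 (743 and 1628 with the median), for Neiguan against IRI 568 and 157 became 562 and 318 (414 and 850 with normexp background correction), for Quchi against IRI 308 and 136 became 336 and 310, and for Quchi against sham 1526 and 1194 became 1192 and 1724. The median difference over all genes was -0.09 in Jiaji against sham and -0.10 in Neiguan against sham, and with median scaling it was -0.36 and -0.24. Median scaling called 13 of the 31 genes lower in Jiaji against sham: Cacna1c, Cacna2d1, Hcn2, Jph2, Kcnh2, Kcnip2, Kcnj11, Kcnj12, Kcnj5, Kcnj8, Kcnk3, Ryr2 and Trdn, with differences from -0.83 to -0.40. Of these, Trdn alone was called with the 75th percentile. Where a gene is said below not to be called, this refers to the 75th percentile and to its brightest probe.

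The median difference of the 31 genes stayed between -0.13 and 0.06 in the 9 group comparisons, where the median of all genes was between -0.10 and 0.04. The pooled SD of arrays within a group ran from 0.18 for Kcnj8 and Pln to 0.77 for Cacna1h. The range of the 6 group means ran from 0.21 for Slc8a1 to 1.84 for Cacna1g.

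**Figure D1:**
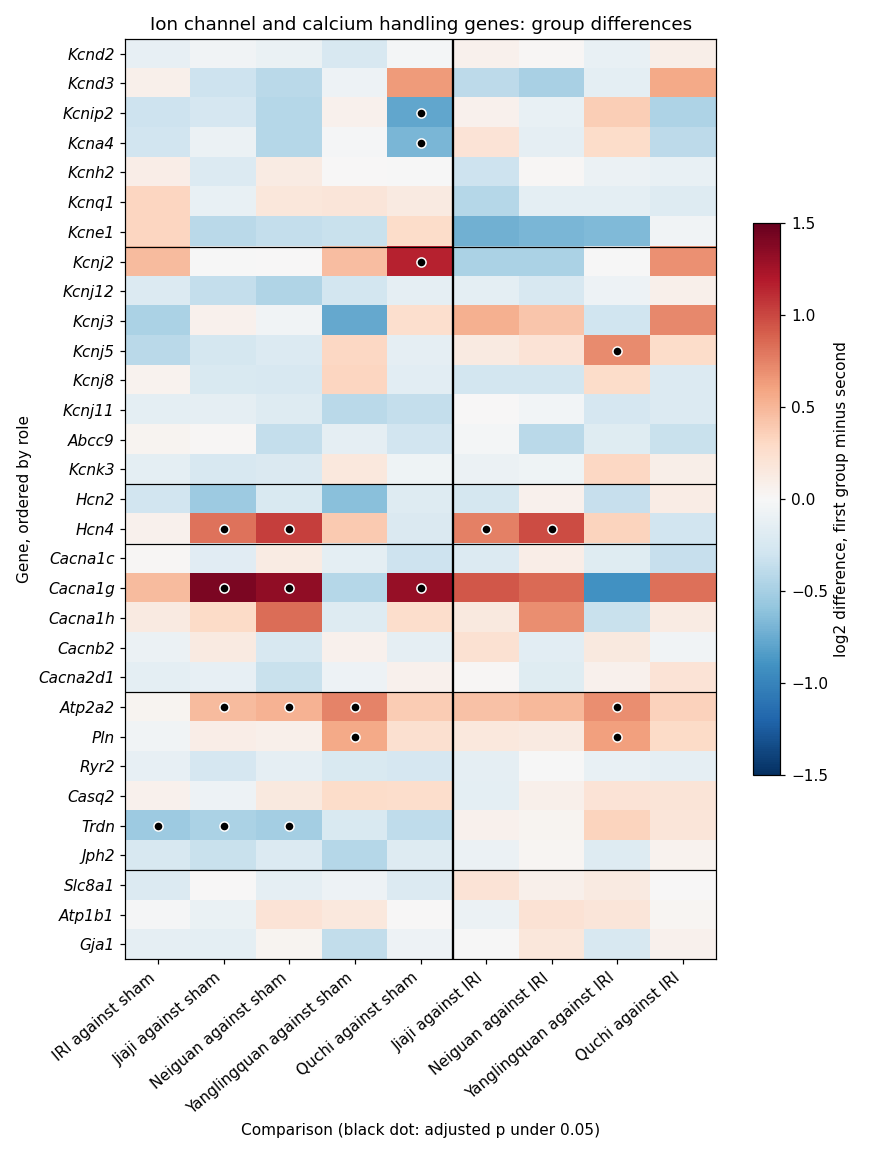
Log2 differences (colour, first group minus second) of the 31 genes, in rows ordered by role, for 9 comparisons in columns, with a black dot where adjusted p was under 0.05. The dots lie on Kcnip2, Kcna4, Kcnj2, Kcnj5, Hcn4, Cacna1g, Atp2a2, Pln and Trdn.

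Among the transient outward and delayed rectifier channels, 7 genes, none was called in IRI against sham or in any acupoint group against IRI, and Kcnip2 and Kcna4 fell in Quchi against sham. Kcnip2 encodes KChIP2, the subunit that brings Kv4 channels to the membrane and shapes the fast transient outward current. Its levels were -1.16, -0.20, 0.05 and -0.28 in sham replicates 1 to 4, and -0.98, -0.57, -0.53 and -0.77 in IRI. They were 0.12, -0.81, -0.72 and -1.16 in Jiaji and -0.80, -0.69, -0.92 and -0.87 in Neiguan. In Yanglingquan they were -0.31, -0.83, -0.14 and -0.09, and in Quchi -1.45, -1.33, -0.71 and -1.19. Quchi was lowest on average, yet sham replicate 1 lay among the Quchi arrays, so the groups overlapped. The difference from sham was -0.78 (SE 0.24, adjusted p = 0.0246), 1.71-fold lower. Without the separately scanned Quchi replicate 1 it was -0.72 (adjusted p = 0.0516), and the call was also lost without Quchi replicate 2 or 4 or sham replicate 2 or 3.

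Kcna4, which encodes Kv1.4, the pore of the slowly recovering transient outward current, moved with it in Quchi. Its levels in sham were -2.27, -2.26, -1.31 and -1.88, and in IRI -2.76, -2.51, -1.62 and -2.0. They were -1.95, -1.87, -1.75 and -2.53 in Jiaji and -2.63, -2.14, -2.49 and -2.19 in Neiguan. The Yanglingquan arrays gave -2.46, -2.61, -1.15 and -1.60, and the Quchi arrays -2.63, -2.73, -2.50 and -2.61. All 4 Quchi arrays lay below all sham arrays, and they spanned less than those of any other group. The difference was -0.69 (SE 0.22, adjusted p = 0.0322), 1.61-fold lower, and -0.78 (adjusted p = 0.0252) without Quchi replicate 1. The call was lost when sex was left out of the model (adjusted p = 0.0965), and without sham replicate 2 or 3 or Quchi replicate 2, 3 or 4. In the whole fit Kcna4 was 0.52 higher in females (SE 0.13), which did not pass adjustment (adjusted p = 0.0919).

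Kcnd2, the gene of Kv4.2 and the main pore of the fast transient outward current in rodent ventricle, was called in no comparison. Its levels were -1.49, -1.27, -1.24 and -1.1 in sham and -1.76, -1.83, -1.03 and -0.96 in IRI. They were -1.34, -1.62, -1.24 and -1.11 in Jiaji, -1.39, -1.66, -1.65 and -0.80 in Neiguan, -1.2, -1.68, -1.57 and -1.59 in Yanglingquan and -1.55, -1.29, -1.13 and -1.24 in Quchi. All groups overlapped, and its differences lay between -0.24 and 0.09. Kcnd3, the gene of Kv4.3, lay between -4.82 and -3.63 on 23 arrays and at -1.75 on Quchi replicate 4, and was called nowhere. Of the delayed rectifier genes, Kcnh2 (hERG) had differences between -0.31 and 0.12 and was called nowhere.

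Kcnq1 and Kcne1, the pore and the accessory subunit of the slow delayed rectifier, also passed in no comparison. Kcnq1 differed by 0.32 in IRI against sham (adjusted p = 0.279) and by -0.43 in Jiaji against IRI (SE 0.16, adjusted p = 0.0871). Median scaling gave -0.64 for the latter, which was called (adjusted p = 0.0223). The second Kcnq1 probe went the other way in both, at -0.34 in IRI against sham and 0.60 in Jiaji against IRI (SE 0.14), so the direction for Kcnq1 depends on the probe. Kcne1 differed from IRI by -0.72 in Jiaji, -0.68 in Neiguan and -0.66 in Yanglingquan (adjusted p = 0.166, 0.231 and 0.19), and by -0.05 in Quchi. Under quantile normalization the Jiaji difference of Kcne1 was -1.04 and was called (adjusted p = 0.0385), as it was with median scaling (-0.93, adjusted p = 0.0459).

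Of 8 inward rectifier, ATP-sensitive and background potassium channel genes, Kcnj2 rose in Quchi against sham and Kcnj5 in Yanglingquan against IRI. Kcnj2 encodes Kir2.1, the main pore of the current that holds the ventricular resting potential. Its levels were -5.58, -4.13, -5.54 and -5.17 in sham and -5.13, -3.71, -4.42 and -5.26 in IRI. They were -4.75, -5.49, -4.95 and -5.26 in Jiaji and -5.53, -4.75, -5.13 and -4.99 in Neiguan. The Yanglingquan values were -4.97, -4.58, -4.74 and -4.29 and the Quchi values -3.39, -3.92, -4.12 and -4.38. In Quchi, 3 arrays lay above all sham arrays and the fourth below the highest sham array. The difference was 1.15 (SE 0.33, adjusted p = 0.0174), 2.23-fold higher, and 0.94 (adjusted p = 0.0561) without Quchi replicate 1, the highest array. The call was also lost without Quchi replicate 2 or sham replicate 1 or 3. The size of the difference depended on the processing: it was 0.57 with normexp background correction (adjusted p = 0.0136) and 0.92 under quantile normalization (adjusted p = 0.0393). Quchi against IRI was 0.68 and was not called (adjusted p = 0.27).

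Kcnj5 encodes Kir3.4, which with Kcnj3's Kir3.1 forms the acetylcholine-gated channel of atrium and sinus node. Its levels were 1.0, 1.21, 1.44 and 1.28 in sham and 0.38, 1.29, 1.1 and 0.56 in IRI. They were 0.93, 1.04, 1.5 and 0.43 in Jiaji and 0.98, 1.19, 1.05 and 0.92 in Neiguan. In Yanglingquan they were 1.55, 1.34, 1.67 and 1.60, and in Quchi 0.79, 0.93, 1.17 and 1.52. All 4 Yanglingquan arrays lay above all IRI arrays, though not above all sham arrays. The difference from IRI was 0.71 (SE 0.15, adjusted p = 0.00503), 1.63-fold higher. Under quantile normalization the difference was 0.69 (adjusted p = 0.0106). A fainter second probe gave 0.41 (SE 0.28), and the mean of both probes 0.56, which was not called (adjusted p = 0.0723). Against sham it was 0.31 (adjusted p = 0.191).

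Kcnj3 did not rise in Yanglingquan, where its mean was -2.65 beside -2.35 in IRI, with overlapping arrays. Its levels were -1.83, -1.94, -2.06 and -1.70 in sham and -2.77, -3.10, -1.90 and -1.64 in IRI. They were -1.77, -2.0, -1.88 and -1.66 in Jiaji and -1.64, -2.10, -2.03 and -1.97 in Neiguan. The Yanglingquan arrays gave -2.59, -2.61, -2.90 and -2.50, all below sham, and the Quchi arrays -2.38, -1.53, -1.64 and -0.98. The difference between Yanglingquan and sham was -0.77 (SE 0.27) and was not called (adjusted p = 0.0663). Quchi differed from IRI by 0.72 (adjusted p = 0.146), and by 0.99 (SE 0.25, adjusted p = 0.0256) without Quchi replicate 1.

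Kcnj8, the Kir6.1 pore of ATP-sensitive channels and best known from vessel walls, differed among the acupoint groups and was not called against sham or IRI. Its levels were 2.29, 2.11, 1.97 and 1.97 in sham and 2.20, 2.34, 1.78 and 2.21 in IRI. They were 1.65, 2.0, 2.16 and 1.64 in Jiaji and 1.88, 1.77, 1.92 and 1.82 in Neiguan. In Yanglingquan they were 2.16, 2.33, 2.46 and 2.69, and in Quchi 1.92, 1.89, 1.95 and 1.93. All Yanglingquan arrays lay above all Neiguan and Quchi arrays. With median scaling Kcnj8 was called lower in Jiaji, by -0.48 against IRI (adjusted p = 0.0409) and -0.50 against sham (adjusted p = 0.0138). Of 8 mural cell markers, 0 were called in Yanglingquan, Neiguan or Quchi against IRI, and 1 was called lower in Jiaji (background 1.8%). The test among the acupoint groups called 1 of the 8, where 39.1% of all genes were called. The markers' summed level lay between 4.07 and 4.32 in Jiaji, 4.21 and 4.58 in the other acupoint groups and 4.11 and 4.53 in IRI. The part of these markers in the Kcnj8 result was not tested. Kcnj11, Abcc9, Kcnj12 and Kcnk3, which encode the Kir6.2 pore and SUR2 subunit of ATP-sensitive channels, Kir2.2 and the background channel TASK-1, were called nowhere, with differences between -0.45 and 0.31 at their brightest probes. Another Abcc9 probe gave -0.96 in Quchi against sham and -0.70 in Quchi against IRI (SE 0.28). Kcnk3 was called with median scaling in Jiaji against sham (-0.52, adjusted p = 0.0183). Under quantile normalization Kcnj12 was called lower than sham in Jiaji (-0.68) and Neiguan (-0.59), and Kcnj11 in Jiaji and Quchi (-0.42 in both).

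**Figure D2:**
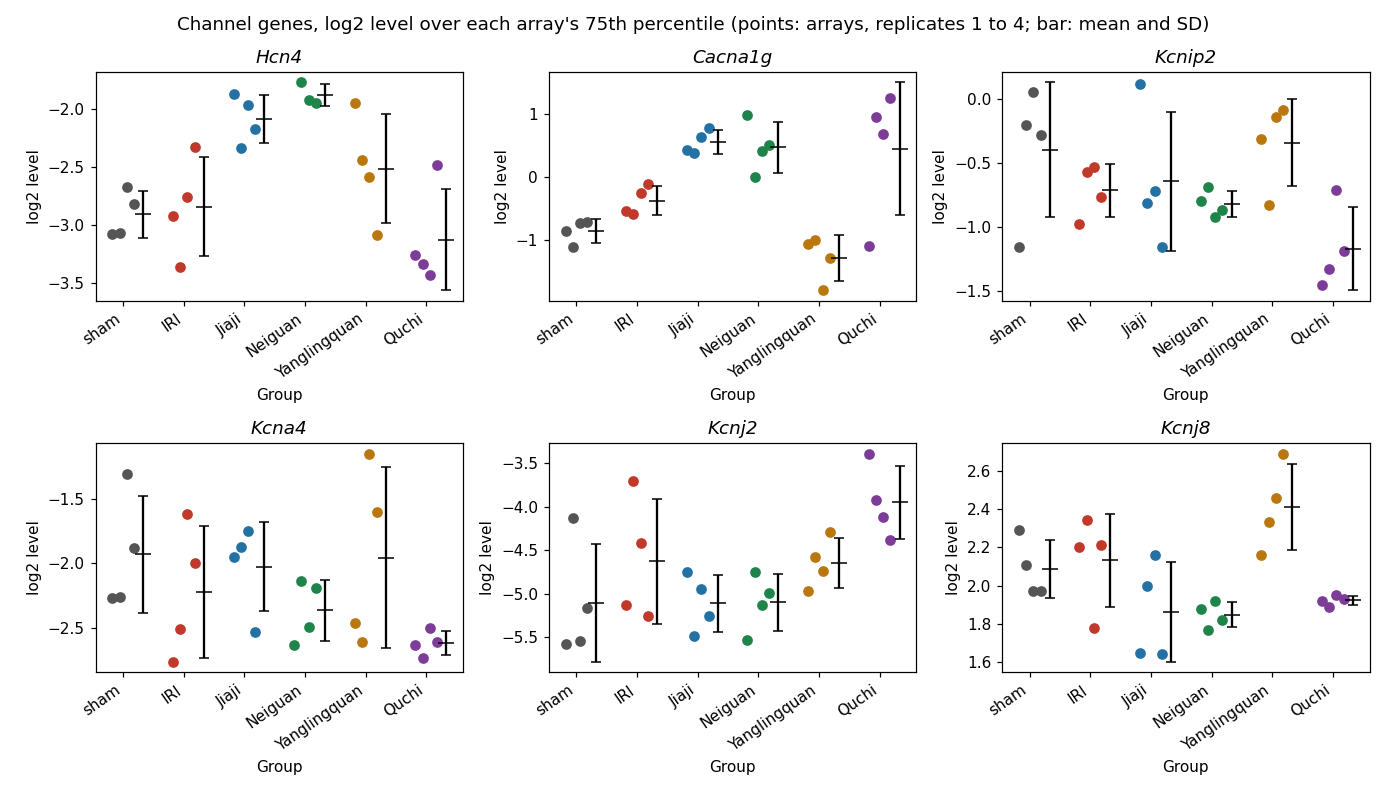
Log2 level over each array's 75th percentile (vertical axes) of 6 channel genes in 6 groups, with 1 point per array and a bar for the mean and SD. Jiaji and Neiguan stand high for Hcn4, Quchi replicate 1 stands at -1.08 for Cacna1g apart from its group, and Quchi spans little for Kcna4 and Kcnj8.

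The pacemaker channel gene Hcn4, the main source of the sinus node's funny current, rose in Jiaji and Neiguan. Its levels were -3.08, -3.07, -2.67 and -2.82 in sham and -2.92, -3.36, -2.76 and -2.33 in IRI. They were -1.87, -2.34, -1.97 and -2.17 in Jiaji, and -1.77, -1.92 and -1.95 on the 3 Neiguan arrays that gave a value. Yanglingquan gave -1.95, -2.44, -2.59 and -3.09, and Quchi -3.26, -3.34, -3.43 and -2.48. Every Jiaji and Neiguan array lay above every sham array, and Yanglingquan spread across both ranges.

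The Neiguan difference of Hcn4 was 1.04 from sham (SE 0.26, adjusted p = 0.00754), 2.06-fold higher, and 0.98 from IRI (SE 0.26, adjusted p = 0.0279), 1.97-fold higher, with 1 Neiguan array missing from the fit. The first of these calls held in every setting that tested Hcn4. The second was lost when IRI replicate 1 or 2, or any of the 3 Neiguan arrays with a value, was left out. The Jiaji difference was 0.82 from sham (SE 0.24, adjusted p = 0.0166), 1.77-fold higher, and 0.60 under quantile normalization (adjusted p = 0.0576), and it was lost without sham replicate 1 or Jiaji replicate 1. From IRI it was 0.76 (SE 0.24, adjusted p = 0.0489), 1.69-fold higher, and 0.58 under quantile normalization (adjusted p = 0.114). That last call was lost under 7 of 9 processing alternatives and 19 of 24 omissions of 1 array. Yanglingquan differed from sham by 0.39 and Quchi by -0.22, and neither was called.

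Some markers of other cell types also differed in Jiaji and Neiguan, in both directions. Against IRI the background was 8.38% higher and 1.8% lower in Jiaji, and 4.41% higher and 1.22% lower in Neiguan. Of 7 pacemaker and conduction system markers, all tested, Shox2 rose in Jiaji against IRI by 1.08 (adjusted p = 0.00109) while Tbx18 fell by 0.45 (adjusted p = 0.0399), and Tbx3 rose in Neiguan against IRI by 2.57 (adjusted p = 0.032). Shox2, Tbx18 and Tbx3 encode transcription factors of the developing sinus node. The summed level of the list lay between 3.12 and 3.28 in sham, 1.95 and 3.71 in IRI, 3.24 and 4.52 in Jiaji, 4.09 and 4.64 in Neiguan, 2.46 and 3.72 in Yanglingquan and 1.79 and 2.96 in Quchi. The brightest probes weigh most in this sum. Tbx3 averaged 1.31 in IRI (SD 1.82), 3.29 in Jiaji and 3.88 in Neiguan, and Nkx2-5 1.99, 2.06 and 2.29. Isl1, Shox2, Tbx18, Cntn2 and Etv1 each averaged -2.8 or lower in every group, so the sum does not show the markers of the list rising together. Isl1 of that list was well above background on 21 of 24 arrays. Of the 7 atrial markers tested, Clic6 alone was called against IRI, 3.38 higher in Jiaji and 3.17 in Neiguan (adjusted p = 0.0116 and 0.0266). Clic6 fell by 3.33 in IRI against sham (adjusted p = 0.0203). Its mean in IRI was -5.27 (SD 2.39), and it was well above background on 22 of 24 arrays. The median difference of the atrial list from IRI was -0.14 in Jiaji and -0.06 in Neiguan. The summed atrial level was 6.35 to 6.78 in Jiaji and 6.64 to 6.69 in Neiguan, below the 6.79 to 6.92 of IRI.

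Of 8 neuronal and Schwann cell markers tested, 3 rose and 1 fell in Jiaji against IRI (background 8.38% higher, 1.8% lower). In Neiguan 2 rose and 1 fell (4.41% higher, 1.22% lower). The noradrenaline synthesis gene Th was higher by 1.18 in Jiaji and 1.28 in Neiguan (adjusted p = 7.56e-05 and 5.51e-05). The summed level of this list was 0.94 to 1.29 in sham, 0.96 to 1.68 in IRI, 1.97 to 2.23 in Jiaji, 2.01 to 2.29 in Neiguan, 1.32 to 1.78 in Yanglingquan and 1.18 to 1.72 in Quchi. The part of these markers in the Hcn4 result was not tested. Hcn2, the pacemaker channel gene also known from ventricle, was called nowhere and differed from sham by -0.55 in Jiaji (adjusted p = 0.121) and -0.63 in Yanglingquan (adjusted p = 0.106). Under quantile normalization its Jiaji difference was -1.02 and was called (adjusted p = 0.0028).

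Among the calcium channel subunits, Cacna1g, the gene of the T-type channel Cav3.1, rose against sham in Jiaji, Neiguan and Quchi. Its levels were -0.85, -1.11, -0.72 and -0.70 in sham and -0.53, -0.58, -0.25 and -0.11 in IRI. They were 0.43, 0.39, 0.64 and 0.79 in Jiaji and 0.99, 0.00, 0.42 and 0.51 in Neiguan. The Yanglingquan arrays gave -1.05, -1.0, -1.79 and -1.28, and the Quchi arrays -1.08, 0.96, 0.69 and 1.26. Every Jiaji and Neiguan array lay above every IRI array and every Yanglingquan array below. In Quchi, 3 arrays lay at the top of the range and replicate 1, the separately scanned array, lay among the sham and Yanglingquan values.

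The Cacna1g difference from sham was 1.41 in Jiaji (SE 0.34, adjusted p = 0.00492), 2.65-fold higher, and 1.33 in Neiguan (adjusted p = 0.00938), 2.51-fold higher. In Quchi it was 1.31 (adjusted p = 0.0105), 2.47-fold higher, and 1.84 (SE 0.21, adjusted p = 1.16e-05) without replicate 1. These calls held under all 10 processing alternatives and when any 1 array was left out, except that the Quchi call was lost without Quchi replicate 2 (adjusted p = 0.0502). With the mean of both probes the differences were smaller, at 0.82 in Jiaji, 0.61 in Neiguan (adjusted p = 0.0437) and 0.72 in Quchi. IRI itself differed from sham by 0.48 and was not called (adjusted p = 0.527). Against IRI the acupoint groups differed by 0.93, 0.85, 0.83 and, in Yanglingquan, -0.91, with adjusted p of 0.0941, 0.167, 0.191 and 0.089. Without Quchi replicate 1, the Quchi difference from IRI was 1.37 (SE 0.21, adjusted p = 0.000365).

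A second Cacna1g probe lay far fainter, between -5.45 and -4.34, and was well above background on 2 of 4 Yanglingquan arrays. It differed from sham by 0.23 in Jiaji, -0.11 in Neiguan and 0.13 in Quchi (SE 0.18), and from IRI by -0.58 in Yanglingquan. The rise in Jiaji, Neiguan and Quchi therefore rests on the brighter probe. With the mean of both, Yanglingquan differed from IRI by -0.75 for Cacna1g, which was called (adjusted p = 0.0236). In those groups the pacemaker marker Shox2 also rose against sham, by 1.85 in Jiaji, 1.11 in Neiguan and 0.82 in Quchi (adjusted p = 1.38e-06, 0.000476 and 0.00705). Shox2 rose as well by 0.77 in Yanglingquan (adjusted p = 0.0166) and 0.77 in IRI (adjusted p = 0.0256), where Cacna1g was not called. Against IRI, Shox2 was called in Jiaji alone (1.08, adjusted p = 0.00109), and differed by 0.34 in Neiguan and 0.05 in Quchi. In Quchi against sham, 3 of the 7 pacemaker markers rose and 2 fell (background 11.8% higher, 9.26% lower), Tbx3 by 2.71 (adjusted p = 0.00968). Of 7 atrial markers tested, 2 fell in Jiaji, 1 in Neiguan, 1 in Yanglingquan and 2 in Quchi against sham, and 0 rose. In the same order of groups, 6.53%, 7.41%, 7.19% and 9.26% of all genes were called lower than sham. Myl7 fell in Jiaji, Neiguan and Yanglingquan by 1.80, 1.88 and 1.92 (adjusted p = 0.0235, 0.0223 and 0.0285). In Quchi Clic6 fell by 2.98 and Pam by 0.41 (adjusted p = 0.0153 and 0.0443). The summed level of the atrial list lay between 6.81 and 7.10 in sham, 6.79 and 6.92 in IRI, 6.35 and 6.78 in Jiaji, 6.64 and 6.69 in Neiguan, 6.95 and 7.20 in Yanglingquan and 6.77 and 7.59 in Quchi. Under quantile normalization the Yanglingquan sum was 16.9 to 17.02, below the 17.12 to 17.14 of IRI and 17.16 to 17.31 of sham. Its direction in Yanglingquan therefore depends on the scaling. The brightest probes weigh most in the sum: in sham, Myl4 averaged 6.44, Myl7 1.07 and Clic6 -1.94. The part of these markers in the Cacna1g result was not tested.

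The other calcium channel genes were called in no comparison with the 75th percentile. Cacna1c, the pore of the L-type channel Cav1.2, had levels of 1.75, 1.43, 1.69 and 1.72 in sham and 1.54, 1.33, 1.97 and 1.85 in IRI. They were 1.5, 1.19, 1.48 and 1.73 in Jiaji, 2.03, 1.79, 1.51 and 1.75 in Neiguan, 1.47, 1.41, 1.60 and 1.5 in Yanglingquan and 1.41, 0.94, 1.14 and 1.87 in Quchi. All groups overlapped with IRI, and its differences lay between -0.34 and 0.12. In Jiaji a second, fainter Cacna1c probe differed by 0.22 from IRI and 0.24 from sham (SE 0.11). The brightest probe gave -0.20 and -0.17 there, and -0.45 from sham with median scaling (adjusted p = 0.0389). The direction for Cacna1c in Jiaji therefore depends on the probe. The other T-type gene Cacna1h (Cav3.2) was the most variable of the 31, from -2.68 to 0.70 over the arrays, and its Neiguan difference from sham was 0.84 (SE 0.52, adjusted p = 0.248). Cacnb2 and Cacna2d1, auxiliary subunits of L-type channels, had differences between -0.33 and 0.23.

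**Figure D3:**
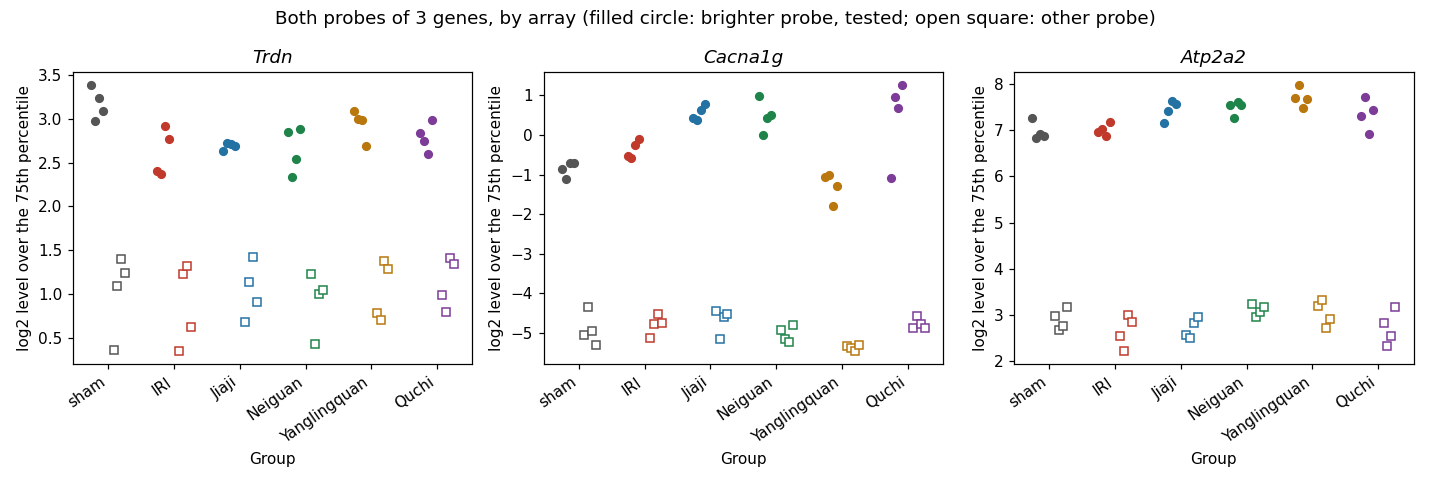
Log2 level over each array's 75th percentile (vertical axes) for both probes of Trdn, Cacna1g and Atp2a2 in 6 groups, 1 mark per array, with filled circles for the tested brighter probe and open squares for the other. The step from sham seen in the circles of Cacna1g is not seen in its squares, which lie between -5.45 and -4.34.

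Of 6 genes of the sarcoplasmic reticulum and its junction, Trdn fell in IRI against sham, and Atp2a2 and Pln rose in Yanglingquan against IRI and against sham. Trdn encodes triadin, which anchors calsequestrin to the ryanodine receptor. Its levels were 3.38, 2.97, 3.23 and 3.09 in sham and 2.40, 2.37, 2.91 and 2.77 in IRI. They were 2.63, 2.72, 2.71 and 2.69 in Jiaji and 2.85, 2.33, 2.54 and 2.88 in Neiguan. Yanglingquan gave 3.09, 3.0, 2.98 and 2.69, and Quchi 2.83, 2.74, 2.60 and 2.98. All sham arrays lay above all IRI, Jiaji and Neiguan arrays, while Yanglingquan and Quchi each reached the lowest sham array.

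The Trdn difference from sham was -0.55 in IRI (SE 0.15, adjusted p = 0.0276), 1.47-fold lower. In Jiaji it was -0.48 (adjusted p = 0.0212), 1.39-fold lower, and in Neiguan -0.51 (adjusted p = 0.0172), 1.43-fold lower. In Yanglingquan it was -0.23 (adjusted p = 0.32) and in Quchi -0.38 (adjusted p = 0.0694), and no acupoint group was called against IRI. The Quchi difference was called under quantile normalization (-0.50, adjusted p = 0.012) and median scaling (-0.45, adjusted p = 0.0499). A fainter second probe gave -0.14, 0.02 and -0.09 for IRI, Jiaji and Neiguan (SE 0.20). With the mean of both probes, no Trdn difference from sham was called among these 3 groups (adjusted p = 0.186, 0.249 and 0.127). Leaving out sham replicate 1 or 3 ended all 3 calls, as did IRI replicate 1 or 2 for IRI, Jiaji replicate 1 for Jiaji and Neiguan replicate 2 or 3 for Neiguan. Of 11 cardiomyocyte markers, 0 were called in IRI against sham (background 4.73% higher, 1.03% lower). Their summed level was 10.15 to 10.48 in sham and 10.13 to 10.26 in IRI. The part of these markers in the Trdn result was not tested.

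Atp2a2 encodes SERCA2. Its levels were 7.27, 6.84, 6.91 and 6.87 in sham and 6.96, 7.02, 6.87 and 7.19 in IRI. They were 7.16, 7.42, 7.64 and 7.57 in Jiaji and 7.56, 7.27, 7.61 and 7.54 in Neiguan. The Yanglingquan arrays gave 7.71, 7.98, 7.48 and 7.69, and the Quchi arrays 7.32, 7.73, 6.91 and 7.45. All Neiguan and Yanglingquan arrays lay above or level with all sham and IRI arrays, and Jiaji and Quchi overlapped with them. Yanglingquan differed from IRI by 0.70 (SE 0.15, adjusted p = 0.00409), 1.63-fold higher, and from sham by 0.74 (adjusted p = 0.00283), 1.67-fold higher.

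Pln encodes phospholamban, the inhibitor of SERCA2. Its levels were 7.02, 6.68, 6.71 and 6.71 in sham and 6.70, 6.81, 6.62 and 6.80 in IRI. They were 6.67, 7.03, 7.04 and 6.81 in Jiaji and 6.90, 6.59, 7.06 and 6.90 in Neiguan. In Yanglingquan they were 7.39, 7.60, 7.13 and 7.30, all above sham and IRI, and in Quchi 7.14, 7.23, 6.73 and 6.98. The difference was 0.62 from IRI (SE 0.13, adjusted p = 0.0033), 1.54-fold higher, and 0.57 from sham (adjusted p = 0.0062), 1.49-fold higher.

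The rise of both genes in Yanglingquan depended on the scaling. Under quantile normalization Atp2a2 differed from IRI by 0.07 (adjusted p = 0.722) and from sham by 0.16 (adjusted p = 0.255). Pln differed by 0.05 (adjusted p = 0.748) and 0.02 (adjusted p = 0.868). The authors' deposited values gave the same differences as quantile normalization for both genes. With each array's median as the scale the differences from IRI were 0.82 for Atp2a2 and 0.74 for Pln, both called. In the same group 8 of 11 cardiomyocyte markers rose against IRI (background 4.09% higher), among them Myl3 by 0.80 (adjusted p = 0.000413) and Tnnt2 by 0.71 (adjusted p = 0.00151). Their summed level was 10.57 to 11.1 in Yanglingquan, against 10.13 to 10.26 in IRI, 10.32 to 10.52 in Jiaji, 10.30 to 10.58 in Neiguan and 10.19 to 10.8 in Quchi. Under quantile normalization, on a log2 intensity scale, it was 20.52 to 20.58 in Yanglingquan and 20.56 to 20.60 in IRI. The part of the scaling, of the lower share of measured probes and of these markers in the result was not tested.

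Against sham, Atp2a2 also rose in Jiaji by 0.48 (SE 0.15, adjusted p = 0.0238), 1.39-fold, and in Neiguan by 0.52 (adjusted p = 0.0168), 1.44-fold. Quantile normalization gave 0.23 (adjusted p = 0.0493) and 0.29 (adjusted p = 0.0185). Median scaling gave 0.20 (adjusted p = 0.319) and 0.38 (adjusted p = 0.0882), with the median of all genes at -0.36 and -0.24 there. With the mean of both probes the differences were 0.15 (adjusted p = 0.463) and 0.37 (adjusted p = 0.0667), so both calls ended. The second Atp2a2 probe differed from sham by -0.18 in Jiaji, 0.21 in Neiguan and 0.14 in Yanglingquan, and from IRI by 0.38 in Yanglingquan (SE 0.19). The Jiaji call was lost without sham replicate 2, 3 or 4 or Jiaji replicate 3 or 4, and the Neiguan call without sham replicate 2 or Neiguan replicate 4. Of 11 cardiomyocyte markers, 1 rose in Jiaji (background 17.5% higher) and 2 in Neiguan (12.5% higher) against sham. The part of these markers in the Atp2a2 result was not tested.

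**Figure D4:**
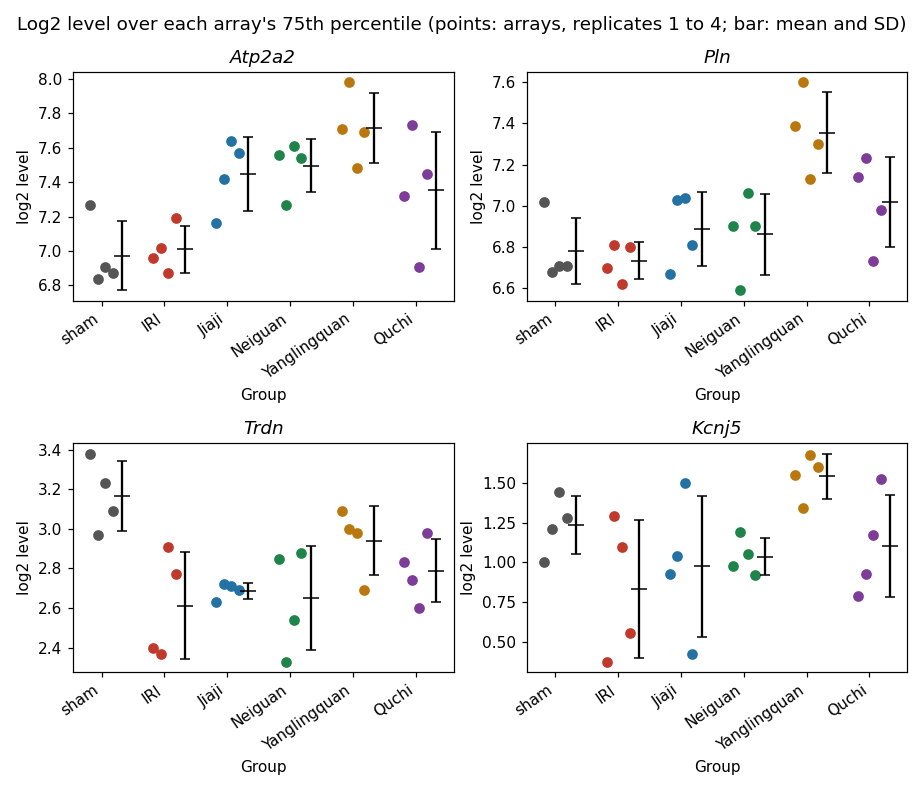
Log2 level over each array's 75th percentile (vertical axes) of Atp2a2, Pln, Trdn and Kcnj5 in 6 groups, with 1 point per array and a bar for the mean and SD. Yanglingquan is the highest group for Atp2a2, Pln and Kcnj5, and sham the highest for Trdn.

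**Figure D5:**
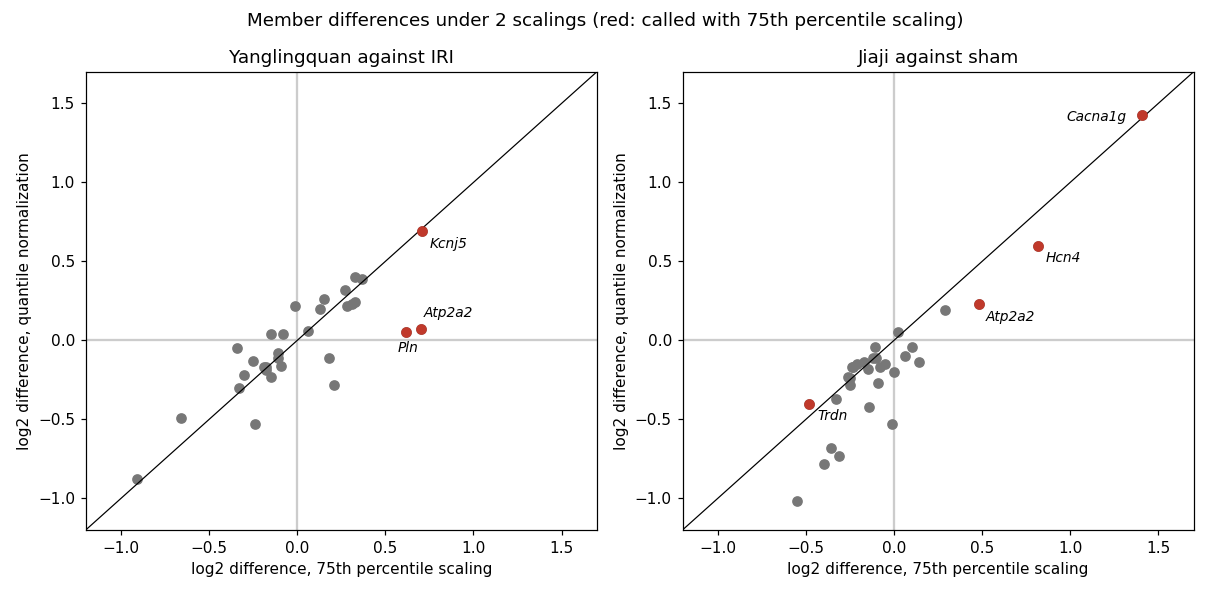
Log2 differences of the 31 genes with 75th percentile scaling (horizontal axis) and quantile normalization (vertical axis), for Yanglingquan against IRI and Jiaji against sham, with equal values on the line and genes called on the horizontal axis in red. Kcnj5 and Cacna1g lie near the line, and Atp2a2 and Pln of the first panel drop to 0.07 and 0.05.

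Ryr2, the ryanodine receptor, was called in no comparison. Its levels were 0.45, 0.34, 0.43 and 0.31 in sham and 0.14, -0.13, 0.33 and 0.70 in IRI. They were 0.38, -0.07, 0.12 and 0.10 in Jiaji, 0.37, 0.40, 0.06 and 0.18 in Neiguan, 0.19, 0.13, 0.40 and -0.12 in Yanglingquan and 0.34, 0.07, -0.05 and 0.18 in Quchi. The groups overlapped, with differences between -0.25 and -0.01. With median scaling the Jiaji difference from sham was -0.53 and was called (adjusted p = 0.0073). A second Ryr2 probe differed from sham by -0.33 in Jiaji, -0.40 in Neiguan and -0.42 in Quchi (SE 0.17). Casq2, the calcium-binding calsequestrin of the store, and Jph2, which ties the store to the cell membrane, were called nowhere, with differences between -0.43 and 0.27.

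The sodium-calcium exchanger gene Slc8a1, the sodium pump subunit gene Atp1b1 and the gap junction gene Gja1 (connexin 43) were called in no comparison. Slc8a1 had levels of -2.54, -2.36, -2.07 and -2.29 in sham and -2.65, -2.52, -2.55 and -2.37 in IRI. They were -1.90, -2.49, -2.17 and -2.70 in Jiaji, -2.29, -2.31, -2.83 and -2.35 in Neiguan, -2.12, -2.47, -2.28 and -2.72 in Yanglingquan and -2.41, -2.69, -2.47 and -2.51 in Quchi. Its brightest probe differed by at most 0.21 in either direction in the group comparisons. The other 2 Slc8a1 probes gave larger and opposed values. One differed from sham by -0.43 in IRI, -0.49 in Neiguan, -0.44 in Yanglingquan and -0.52 in Quchi (SE 0.17), and the other by 0.36 in Quchi (SE 0.11).

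Gja1 levels were 5.48, 4.94, 5.49 and 5.26 in sham and 5.05, 4.83, 5.27 and 5.48 in IRI. They were 4.90, 5.31, 5.31 and 5.07 in Jiaji, 5.39, 5.10, 5.42 and 5.41 in Neiguan, 5.08, 5.26, 4.76 and 4.59 in Yanglingquan and 5.28, 5.33, 4.96 and 5.29 in Quchi. Yanglingquan was lowest on average but overlapped with sham and IRI, at -0.37 from sham (SE 0.17, adjusted p = 0.142). Under quantile normalization that difference was -0.65 and was called (adjusted p = 0.00688), as was -0.53 from IRI (adjusted p = 0.0337). Atp1b1 had differences between -0.10 and 0.22.

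Whether the acupoint groups differ among themselves was tested with a moderated F test. It called 8 of the 31 genes, where 39.1% of all genes were called. They were Cacna1g (adjusted p = 0.00083), Hcn4 (0.0024), Kcnj8 (0.00813), Pln (0.0145), Kcnj5 (0.0211), Kcnj2 (0.0227), Kcnj3 (0.0236) and Kcnip2 (0.0444). Cacna1g means ran from -1.28 in Yanglingquan to 0.56 in Jiaji, with 0.48 in Neiguan and 0.46 in Quchi, so the last 3 lay within their spread and Yanglingquan apart. Hcn4 means ran from -3.13 in Quchi to -1.88 in Neiguan. Kcnj8 means ran from 1.85 in Neiguan to 2.41 in Yanglingquan. Of these 8, Cacna1g, Hcn4 and Kcnj8 kept their call in every alternative that tested them. Without Quchi replicate 1, Kcnip2 and Kcnj2 were no longer called (adjusted p = 0.102 and 0.0922). Kcnj2 was also lost without Quchi replicate 2, Kcnj3 without Yanglingquan replicate 1, 2 or 3, Kcnj5 without Yanglingquan replicate 1 and Pln without Yanglingquan replicate 2. Pln was lost under quantile normalization and with the deposited values too, Kcnj5 under 3 of 10 processing alternatives (the deposited values, the mean of probes and no sex term, adjusted p up to 0.282), and Kcnip2 under 5 of 10 processing alternatives and 15 of 24 omissions of 1 array. Atp2a2 was not among the 8, so its level in Yanglingquan was not shown to differ from the other acupoints.

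Between the sexes 0 of the 31 genes were called by limma, with 5 at an unadjusted p under 0.05, and 0.209% of all genes were called. The smallest p-values were those of Kcnj5, 0.38 higher in females (SE 0.09, adjusted p = 0.0737), and of Kcna4. The interaction of injury with sex, which rests on 2 arrays in each of its cells, called 0 of the 31 genes and 0.0% of all genes, with 2 of the 31 and 632 of all genes at an unadjusted p under 0.05. Those 2 were Kcnj2 (1.63, SE 0.55, adjusted p = 0.747) and Cacna1h (-2.23, SE 0.76, adjusted p = 0.758).

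A further list held 116 other channel and calcium genes, of which 98 were tested. In IRI against sham 4 rose and 2 fell, beside the background of 4.73% and 1.03%, led by Kcna6, a Kv1-type potassium channel gene, 0.89 higher (SE 0.14, adjusted p = 0.000583). The accessory subunit Kcne4 rose by 0.50 (adjusted p = 0.0029), and the store calcium-binding protein Calr fell by 0.54 (adjusted p = 0.0169). The calcium channel gene Cacna1e rose by 1.33 (adjusted p = 0.00309).

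Against sham, 17 of the 98 rose and 10 fell in Jiaji, and again 17 and 10 in Neiguan, with medians of -0.07 and -0.03. The background was 17.5% higher and 6.53% lower in Jiaji and 12.5% and 7.41% in Neiguan, so the count that rose in Jiaji lay at the background. Kcna6 was 1.40 and 1.5 higher, and Cacna1a, the P/Q-type channel best known from neurons, 1.83 and 1.99 higher (adjusted p = 7.13e-08 and 2.02e-08). The exchanger genes Slc8a2 and Slc8a3 rose by 1.04 and 1.36 in Jiaji (adjusted p = 7.72e-05 and 7.27e-05), where Slc8a1 differed by 0.00. Fkbp1b, the ryanodine receptor's binding protein FKBP12.6, rose by 1.02 and 1.35, and S100a1, a calcium sensor that acts on SERCA2 and the ryanodine receptor, fell by 0.48 and 0.56 (adjusted p = 0.0113 and 0.00504).

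Yanglingquan had 4 of the 98 higher and 12 lower than sham (background 5.84% and 7.19%), among them the SERCA inhibitor sarcolipin (Sln), 1.05 lower (adjusted p = 0.00326), and the inward rectifier Kcnj4, 1.55 lower (adjusted p = 6.4e-06). Against IRI 1 rose and 9 fell (background 4.09% and 8.06%), with Kcnj4 1.63 lower (adjusted p = 4e-06). In Quchi against sham 12 rose and 9 fell (background 11.8% and 9.26%). The sodium channel accessory subunit gene Scn3b rose by 1.60 (adjusted p = 0.00754), and the kinase gene Camk2d and the mitochondrial calcium channel gene Mcu fell by 1.51 and 1.09 (adjusted p = 0.000295 and 0.00193). In Jiaji against IRI 13 rose and 3 fell (background 8.38% and 1.8%), in Neiguan 5 and 3 (4.41% and 1.22%), and in Quchi 0 and 2 (2.39% and 1.05%). The test among the acupoint groups called 45 of the 98, where 39.1% of all genes were called. Between the sexes 1 was called, lower in females, and 0 in the interaction of injury with sex.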

How the data were processed

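Rat myocardial RNA was measured on 24 single-colour Agilent arrays, Cy3-labelled, per the labels. The scanner files hold spot intensity that Feature Extraction 11.0.1.1 had background-subtracted, per the file headers. Version 10.7.3.1 stands in the submitters' processing notes. That software also set a flag of 0 or 1 on each spot (an other value), per the file headers. The authors' deposited log2 table, with a median of 7.20 in every column and a correlation of 0.997 to 1.0 with log2 processed intensity, served as an alternative; its scale follows from that comparison, and how it was normalized the sources used here do not say. It holds 0 columns of other samples.

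Control spots (1377 per array) and 8733 outlier spots were left out, 0 were saturated, and spots of a probe were averaged. RefSeq accessions named 18005 of 30367 probes (59.3%, 1 gene each) and 12362 stayed unnamed. A probe passed when every array of 1 or more groups had it well above background (at least 0.5 of its spots), and a gene was its brightest passing probe. Log2 values minus each array's 75th percentile were fitted in R 4.3.3 with limma 3.58.1 (group and sex, 17 residual degrees of freedom), and all p-values are two-sided. The alternatives were quantile normalization, median scaling, normexp with an offset of 50 on the median spot signal (the mean signal is not in the files used), the deposited values, 2 other filters, the mean of probes, no sex term, a replicate block, scan as a random block and omission of each array. The fit was tested on simulated data. Precision is limited by 4 arrays a group.

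The genes and lists were chosen with earlier results of these data known. Values per array are given for every gene called in a comparison and for the defining genes of each role; of other channel lists, the called genes of smallest p, at most 4 per list and comparison.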

Additional observations from a re-analysis of the deposited data

Results flagged for a closer look

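In 9 of 185 sets of 4 arrays, 1 array stood apart by Dixon's criterion, and chance marks about 1 set in 20. Kcnd3 was at -1.75 on Quchi replicate 4, against -4.42 to -4.10 on the other Quchi arrays, and Cacna1h at -1.19 on Quchi replicate 3. Cacnb2 was at -2.84 on IRI replicate 2, Slc8a1 at -2.83 on Neiguan replicate 3 and Atp1b1 at 4.71 on Jiaji replicate 1. Sham replicate 1 was high for both Atp2a2 (7.27) and Pln (7.02). Gja1 was low on Neiguan replicate 2 (5.10) and Quchi replicate 3 (4.96).

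By the moderated F test 8 genes differed among the acupoint groups, with adjusted p of 0.00083 for Cacna1g, 0.0024 for Hcn4, 0.00813 for Kcnj8, 0.0145 for Pln, 0.0211 for Kcnj5, 0.0227 for Kcnj2, 0.0236 for Kcnj3 and 0.0444 for Kcnip2.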

How the results depend on the processing

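None of the 20 called differences of these genes changed sign under 9 processing alternatives, nor did the 16 that could be tested among genes well above background on every array, which leaves out Hcn4. Calls lost numbered 6 under quantile normalization, 4 under median scaling, 1 under normexp, 6 with the deposited values, 1 with no filter on dim probes, 7 with the mean of probes, 1 with no sex term, 1 with the replicate block and 0 with scan as a random block. The last setting cannot adjust for a scan effect, because scan nearly coincides with group. It raised the genes called in IRI against sham from 743 to 1640 of all genes. The mean of probes left 0 genes called in IRI against sham and in Jiaji against IRI, and 2 each in Jiaji and Neiguan against sham. Median scaling called 3 genes in Jiaji against IRI, all lower, 14 in Jiaji against sham, 13 of them lower, 7 in Neiguan against sham and 18 among the acupoint groups. In Jiaji against IRI 0 were called with no filter on dim probes, with the replicate block, or among genes well above background on every array; that filter also left 0 in Neiguan against IRI, where normexp called 4. Quantile normalization and the deposited values each called 1 in Yanglingquan against sham, Gja1 and lower in the first. Normexp called 1 between the sexes. With scan as a random block, whose correlation of -0.1 rests on Quchi alone, 2 were called in IRI against sham, 5 in Jiaji, 2 in Neiguan, 5 in Yanglingquan and 1 in Quchi against IRI, 8 in Yanglingquan against sham and 13 among the acupoints. Arrays share only a replicate number: deviations of same-numbered arrays correlated at -0.39 to 0.37 over 60 pairs, with 23 over 0.1. Among the group differences the replicate block ended the call of Hcn4 in Jiaji against IRI (adjusted p = 0.0698 for Hcn4) and added Kcnj3 in Yanglingquan against sham (adjusted p = 0.0453 for Kcnj3). Omitting 1 array gave 0 to 1 in IRI against sham, 0 to 2 in Jiaji, Neiguan and Quchi against IRI, 2 to 4 in Jiaji against sham, 0 to 5 in Quchi against sham (0 without Quchi replicate 2), 0 to 1 between the sexes and 5 to 9 among the acupoints. The cause of these changes was not tested.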
